A study of Homo sapiens with 9 samples.

Results

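WB436B, a compound known here by its code name, was compared directly with small interfering RNA (siRNA) against STAT3 in BxPC3, an established human cell line from a pancreatic ductal adenocarcinoma. The 6 libraries of this comparison, of 9 in all, were 3 from cells treated with 0.1 µM WB436B and 3 from cells transfected with STAT3 siRNA. The other 3 came from vehicle-treated cells and serve as a reference level for both treatments. The question was which groups of transcripts separate the compound from depletion of the STAT3 messenger RNA. The labels call the libraries of a group biological replicates and say no more of their origin. Each model p-value rests on the spread within the groups, vehicle included, and this spread may be technical. An SE can therefore be large through the vehicle libraries alone. The labels name no non-targeting siRNA, no vehicle substance and no time under treatment, so transfection and STAT3 depletion cannot be told apart in this contrast.

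STAT3 is a transcription factor that rests in the cytoplasm until a Janus kinase phosphorylates it downstream of cytokine receptors such as those of the interleukin-6 family. Phosphorylated STAT3 forms dimers, enters the nucleus and binds DNA, where it induces acute-phase genes, survival genes and its own feedback inhibitor SOCS3. An siRNA removes the messenger and thereby the protein, while a compound can act on a protein that is still made, and on other proteins. In pancreatic ductal carcinoma cells STAT3 is known for its ties to inflammatory cytokines, matrix proteases and ductal differentiation.

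Genes entered the comparison with at least 1 FPKM (fragments per kilobase of transcript, scaled to the mapped fragments of a library) in at least 3 of the 6 libraries, which kept 12064 of 60564 identifiers, 10471 of them protein-coding. Differences are given on the scale of log2(FPKM + 1), WB436B minus STAT3 siRNA, so a positive value is higher under WB436B, and this scale understates the change of weak transcripts. A gene is called at an adjusted p below 0.05 (limma-trend, Benjamini-Hochberg over all tested genes). Estimated depth was about 16600000 to 20500000 fragments in the 6 libraries, if the smallest step between FPKM values is 1 fragment. By the same estimate the vehicle libraries held about 47600000, 15600000 and 15000000 fragments, so the first of them was far deeper than the rest. Mitochondrial transcripts took 31.6% to 32.5% of the summed FPKM. Pearson correlations across genes were 0.984 to 0.988 within both groups and 0.933 to 0.935 between them, and none of the 6 libraries stood apart from its group.

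In bulk libraries like these, fewer cells of a type and less RNA per cell cannot be told apart. The cells carried ductal and epithelial markers in both groups. The 10 markers summed to 2165 to 2281 FPKM after the siRNA and to 1860 to 2015 FPKM under WB436B. Of the acinar and endocrine markers, CELA3A, INS and GCG were listed at 0 in all 9 libraries, and the endothelial marker KDR likewise. The 5 leukocyte markers summed to 2.93 to 5.28 FPKM after the siRNA and to 2.90 to 3.08 FPKM under WB436B. Of the 6 fibroblast markers, COL1A1 and COL3A1 passed the filter, and the 6 together summed to 3.43 to 3.77 FPKM after the siRNA and to 0.721 to 0.881 FPKM under WB436B. The part of these low levels in the results was not tested.

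The knockdown itself separated the groups. STAT3 stood at 2.98, 2.58 and 3.02 FPKM after the siRNA and at 10.5, 10.9 and 10.8 FPKM under WB436B, against 16.4, 15.8 and 15.1 FPKM under vehicle. The groups did not overlap, and the difference was 1.61 (SE 0.0576, limma adjusted p = 2.2e-07). An exact two-sided permutation test of the 6 values gave p = 0.1, the smallest that 3 against 3 libraries allow. SOCS3, the feedback inhibitor that STAT3 induces, stood at 0.798, 1.11 and 1.01 FPKM after the siRNA and at 4.0, 3.97 and 4.35 FPKM under WB436B, with 5.56 FPKM as the vehicle mean. The 3 siRNA libraries were again the low ones (1.38, SE 0.0867, adjusted p = 3.1e-06).

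**Figure D1:**
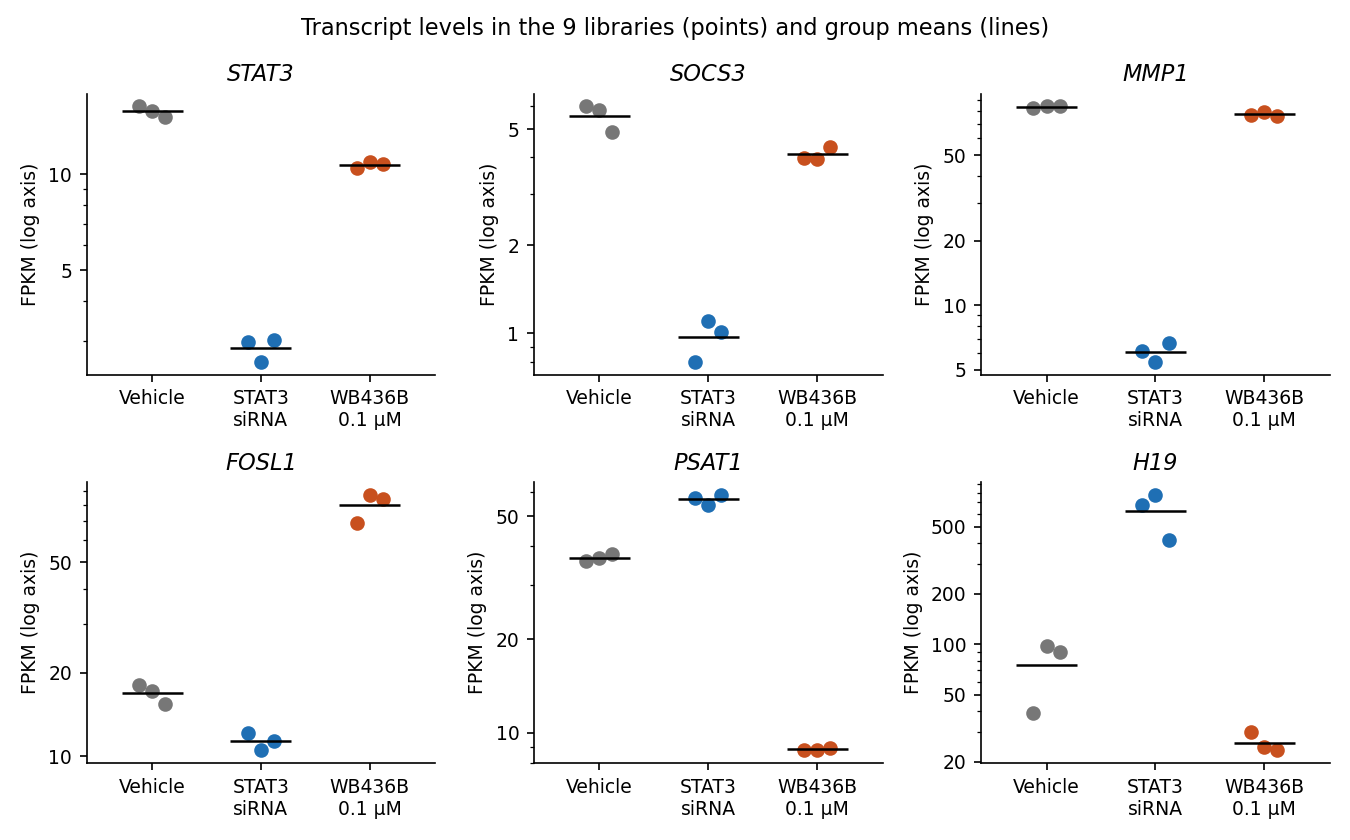
FPKM on a log axis in each of the 9 libraries (points) and the mean of each group of 3 (lines) for STAT3, SOCS3, MMP1, FOSL1, PSAT1 and H19. The 3 WB436B libraries lie above the 3 siRNA libraries for the first 4 genes and below them for PSAT1 and H19, while MMP1 under WB436B (76.0 to 79.0 FPKM) lies near its vehicle mean of 83.7 FPKM.

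MMP1, FOSL1, PSAT1 and H19 mark different forms of this contrast. MMP1, the interstitial collagenase, stood at 6.12, 5.45 and 6.70 FPKM after the siRNA and at 76.9, 79.0 and 76.0 FPKM under WB436B, a 12.7-fold ratio of the means and the largest positive difference among the genes named here (3.47, SE 0.0612, adjusted p = 1.3e-08). Its vehicle mean was 83.7 FPKM, so the siRNA libraries were the ones far from vehicle. FOSL1, the Fos-like subunit FRA1 of the AP-1 transcription factor, stood at 12.1, 10.5 and 11.3 FPKM after the siRNA and at 69.0, 87.3 and 84.2 FPKM under WB436B. Here the WB436B libraries were far from the vehicle mean of 16.9 FPKM (2.71, SE 0.0977, adjusted p = 2.2e-07).

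PSAT1, the aminotransferase of serine synthesis, stood at 57.1, 54.1 and 58.6 FPKM after the siRNA and at 8.81, 8.76 and 8.93 FPKM under WB436B. It was 6.41-fold higher after the siRNA (-2.55, SE 0.0421, adjusted p = 1.3e-08), with the vehicle mean of 36.7 FPKM between the groups. H19, an imprinted non-coding transcript, stood at 673, 778 and 420 FPKM after the siRNA and at 30.0, 24.5 and 23.3 FPKM under WB436B. The siRNA libraries spread widely and lay all far above the others, and the difference of -4.50 (SE 0.349, adjusted p = 9.6e-06) was the largest negative one among the genes chosen by the rule for named genes. Vehicle libraries held 39.2, 97.3 and 89.5 FPKM of H19.

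Between the treatments 7820 of 12064 tested genes were called (64.8%). Under WB436B 2520 genes were higher (20.9%) and 5300 lower (43.9%), and the libraries of the groups did not overlap in 8541 genes (70.8%). At least 2-fold differences were fewer, with 267 genes higher (2.21%) and 642 lower (5.32%). The median difference of all tested genes was -0.17, which is the value to hold beside the list medians below. The shares of 20.9% higher and 43.9% lower are those to hold beside the list counts. The split depended on the scaling, since 32.2% of the calls were higher with the FPKM values unscaled, 50.4% after median-of-ratios scaling (3852 genes higher, 3791 lower) and 49.4% with quantile normalization, and the median moved to -0.0003 and -0.00767.

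The direction went with the level of a transcript. Among genes averaging under 2 FPKM over the 6 libraries, 189 were higher and 1518 lower under WB436B (median -0.41). Among those of 20 to 50 FPKM, 503 were higher and 282 lower (median 0.12). Fewer genes reached 1 FPKM under WB436B (10846 to 10903 per library) than after the siRNA (12254 to 12329) or under vehicle (12231 to 12242). Of the tested genes, 912 had at least 1 FPKM in every siRNA library and in no WB436B library, and 79 the reverse. Such genes passed the filter only through the group where they are high, so they had to differ. Of the genes described below this holds for PRSS1, SNORD14D, DMBT1, SOX2, BMF, EPHA4, COL3A1, TM7SF2, COL1A1, MXD4, C1R, ENO2, SMAD7 and the readthrough gene BLOC1S5-TXNDC5 on the siRNA side and for MMP9, CSF2 and VIM on the WB436B side. The p-values of these genes are printed as descriptions only and are no support for a difference. The list counts below include such members.

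**Figure D2:**
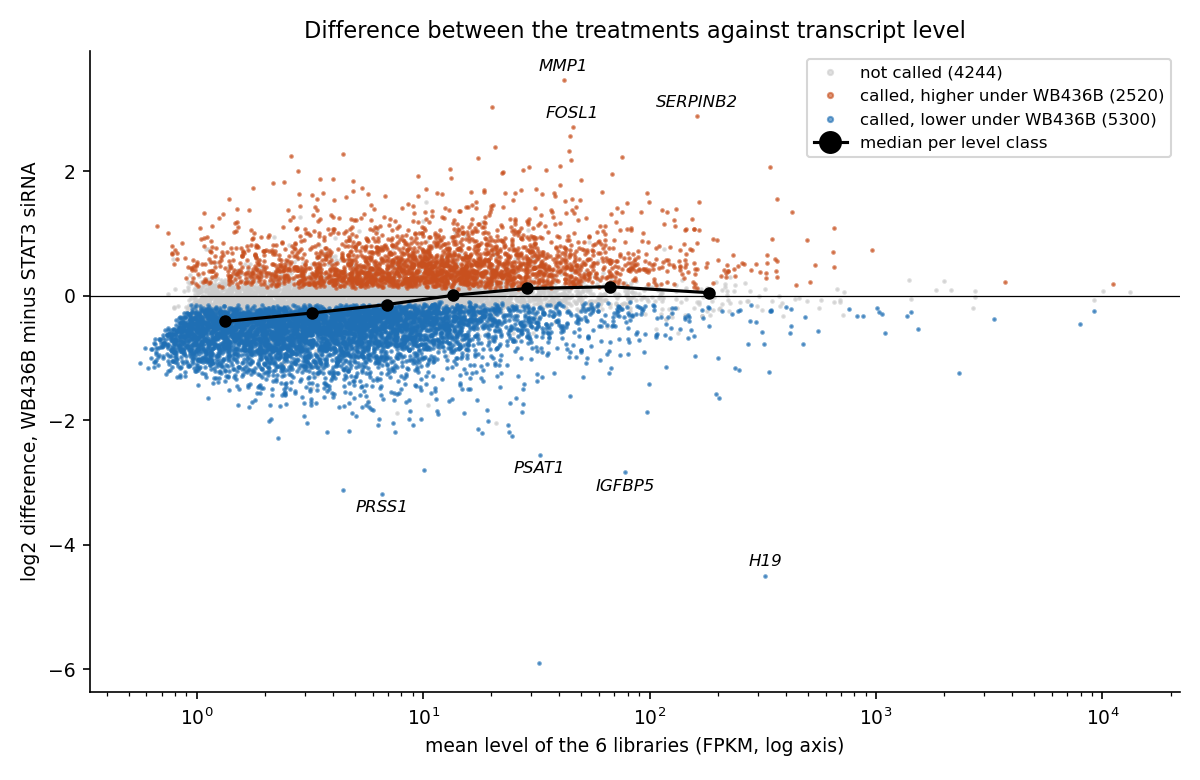
Log2 difference (WB436B minus STAT3 siRNA) of each tested gene against its mean level in the 6 libraries on a log axis, coloured by call (orange higher, blue lower, grey not called), with the median of each level class in black. The medians run from -0.41 under 2 FPKM to 0.15 at 50 to 100 FPKM. The lowest point is BLOC1S5-TXNDC5, a readthrough gene.

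Several classes of non-coding transcripts were mostly lower under WB436B, and others were not. Of 284 tested antisense transcripts 200 were lower and 20 higher (median -0.60), and of 228 lincRNAs 156 were lower and 20 higher (median -0.56). Of 52 sense-intronic transcripts 37 were lower and 0 higher. By contrast, of 366 processed pseudogenes 130 were lower (35.5%) and 59 higher, with a median of -0.16 near that of all tested genes. Small nucleolar RNAs were lower in 24 of 70 (34.3%) and higher in 2, and microRNAs lower in 29 of 67 (43.3%) and higher in 1. Mitochondrial transfer RNAs were lower in 7 of 22 and higher in 7. The host genes of small nucleolar RNAs, which carry these RNAs in their introns, were lower in 13 of 16 and higher in 0 (median -0.68). Zinc finger genes named ZNF, mostly transcriptional repressors, were lower in 149 of 263 and higher in 28 (median -0.36). Protein-coding genes as a whole had a median of -0.14, with 2372 higher and 4404 lower. The part of the level of these transcripts in their direction was not tested.

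**Figure D3:**
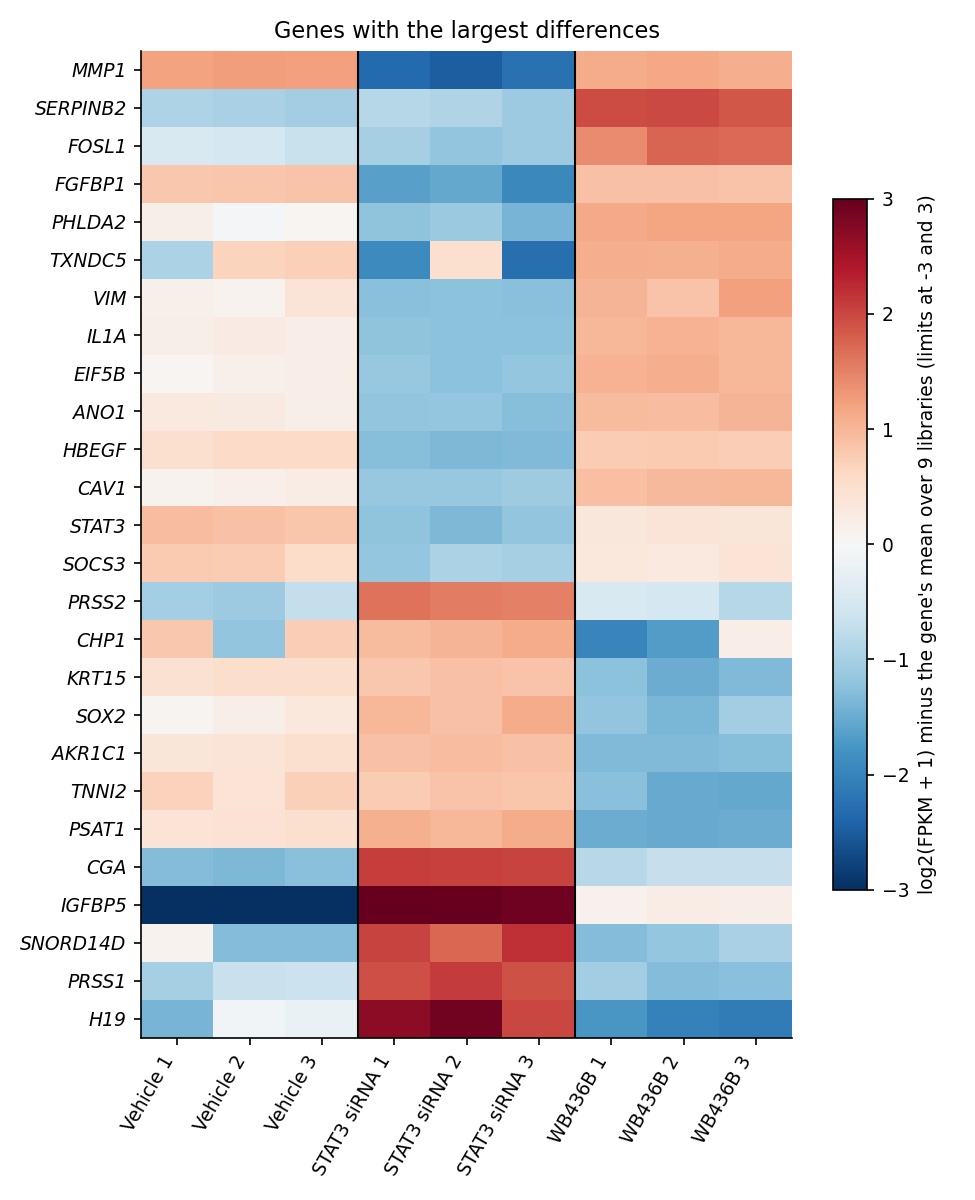
Log2(FPKM + 1) minus each gene's mean over the 9 libraries, for the 12 largest differences in each direction together with STAT3 and SOCS3, with genes in rows ordered by the difference and libraries in columns. The siRNA columns are blue (below the mean) in the upper rows and red (above it) in the lower rows, and TXNDC5 and CHP1 show single libraries that go against their group. Vehicle lies with WB436B for MMP1 and FGFBP1 and with the siRNA for SERPINB2.

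After MMP1, the largest positive difference was that of SERPINB2, an inhibitor of plasminogen activators. It stood at 40.4, 39.4 and 34.4 FPKM after the siRNA and at 291, 298 and 272 FPKM under WB436B (2.88, SE 0.0675, adjusted p = 3.9e-08), and the siRNA libraries were near the vehicle mean of 37.3 FPKM. FGFBP1, a secreted carrier that releases fibroblast growth factors, averaged 12.1 ± 1.77 FPKM (SD, n = 3) after the siRNA and 76.7 ± 0.605 under WB436B, beside 74.1 under vehicle. For FGFBP1 the compound left the level near vehicle and the siRNA libraries were the low ones. PHLDA2, an imprinted growth regulator, averaged 6.0 ± 0.667 and 35.7 ± 0.647 FPKM in the same order. ANO1, a calcium-activated chloride channel, averaged 15.6 ± 0.806 and 74.0 ± 2.59 FPKM. CAV1, the coat protein of caveolae, averaged 130 ± 3.25 and 550 ± 18.5 FPKM (2.08, SE 0.0450, adjusted p = 3.0e-08). EIF5B, a GTPase that joins the ribosomal subunits at the start codon, averaged 5.57 ± 0.249 and 29.6 ± 1.06 FPKM. For these genes and SERPINB2 the groups did not overlap, and the vehicle means of PHLDA2, ANO1, CAV1 and EIF5B (16.2, 44.5, 314 and 15.3 FPKM) lay between the groups.

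TXNDC5, an endoplasmic reticulum thioredoxin, was among the 12 largest positive differences but is uncertain. It stood at 7.64, 44.9 and 5.76 FPKM after the siRNA and at 68.2, 67.5 and 69.8 FPKM under WB436B (2.32, SE 0.708, adjusted p = 0.018), and the second siRNA library lay far above the others of its group. The readthrough gene BLOC1S5-TXNDC5, which shares 60.6% of the exon bases of TXNDC5, was named after its values were seen. It held 80.3, 29.5 and 84.9 FPKM after the siRNA and was listed at 0 in all 3 WB436B libraries, where the siRNA library with the highest TXNDC5 had the lowest readthrough value, and the part of shared fragments in the TXNDC5 difference was not tested. The TXNDC5 call was lost without siRNA replicate 1 (1.98, adjusted p = 0.064) and without siRNA replicate 3 (1.80, adjusted p = 0.064).

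On the other side, IGFBP5, which binds insulin-like growth factors outside the cell, stood at 144, 141 and 128 FPKM after the siRNA and at 17.7, 19.2 and 18.6 FPKM under WB436B (-2.83, SE 0.0535, adjusted p = 1.8e-08). Both groups lay far above the vehicle mean of 0.878 FPKM. CGA, the common alpha subunit of the glycoprotein hormones, averaged 18.4 ± 0.429 FPKM after the siRNA and 1.80 ± 0.15 under WB436B. TNNI2, a troponin subunit of fast skeletal muscle, averaged 41.3 ± 1.38 and 7.90 ± 0.950 FPKM. These were low under WB436B and high after the siRNA in each library, but differed against vehicle, which held 0.896 FPKM of CGA and 35.6 of TNNI2. SOX2, a transcription factor of stem and progenitor cells, averaged 6.79 ± 0.659 and 0.709 ± 0.196 FPKM, beside 3.46 under vehicle. KRT15, a basal keratin, averaged 13.0 ± 0.382 and 2.07 ± 0.261 FPKM. SNORD14D, a small nucleolar RNA, was also among the 12 (-3.12), but all of its exon bases lie within exons of HSPA8, so its value is uncertain. CHP1, a calcium-binding partner of sodium-proton exchangers, is uncertain as well, since its WB436B libraries held 3.79, 4.99 and 20.8 FPKM (-2.18, SE 0.652, adjusted p = 0.017). Its call was lost without WB436B replicate 1 (-1.77, adjusted p = 0.060) or 2 (-1.93, adjusted p = 0.057).

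Both main trypsinogen genes were high after the siRNA, while under WB436B PRSS1 was below vehicle and PRSS2 averaged more than under vehicle. PRSS1, which encodes cationic trypsinogen, stood at 12.2, 13.9 and 12.1 FPKM after the siRNA and at 0.676, 0.422 and 0.457 FPKM under WB436B (-3.18, SE 0.113, adjusted p = 2.1e-07), beside 1.05 FPKM under vehicle. PRSS2, which encodes anionic trypsinogen, stood at 8.74, 8.20 and 7.97 FPKM after the siRNA and at 1.30, 1.2 and 0.750 FPKM under WB436B (-2.17, SE 0.129, adjusted p = 2.3e-06), beside 0.662 FPKM under vehicle. Both are closely similar copies, so their fragments can be exchanged between them. PRSS3, a further trypsinogen, was higher under WB436B (0.37). Of 12 tested members of the list of trypsinogens and secreted proteases, 3 were higher and 8 lower (median -0.42). The stretches before the starts of PRSS1 and PRSS2 are shown because both genes moved together and hold the same short motifs, but PRSS3, which went the other way, holds the same letters too. They are RefSeq sequences of GRCh38.p14 on the plus strand, chr7:142749282-142749371 and chr7:142770780-142770869, from 190 to 101 bases before the start. Capitals mark matches to TGANTCA, the letters bound by AP-1, and to TGATGNAA, the composite letters bound by C/EBP-ATF dimers.
PRSS1: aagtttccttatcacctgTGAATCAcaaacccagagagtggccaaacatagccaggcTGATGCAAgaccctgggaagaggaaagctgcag
PRSS2: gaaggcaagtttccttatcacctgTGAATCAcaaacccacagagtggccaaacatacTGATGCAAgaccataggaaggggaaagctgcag
Both stretches hold TGAATCA and TGATGCAA, the second match 133 bases before the start in each. Of the 8401 tested genes with a promoter in the table, 3.89% hold TGANTCA and 1.25% TGATGNAA on either strand within 250 bases before the start.

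Genes known as targets of STAT3 did not share a direction. Of 31 tested members of 40 in the list, 11 were higher and 11 lower under WB436B, and 9 were not called (median 0.14, 0.07 to 0.20 when a library was left out). The higher count includes STAT3, whose direction the siRNA set, and MMP1, a gene chosen beforehand for this contrast. On the higher side stood MMP1, STAT3 and SOCS3 with TGM2, a transglutaminase that crosslinks proteins, at 17.5, 18.2 and 16.9 FPKM after the siRNA and at 61.4, 61.7 and 65.9 FPKM under WB436B (1.79, SE 0.0536, adjusted p = 1.0e-07). On the lower side, CEBPD, a transcription factor of the acute-phase response, stood at 12.5, 14.2 and 13.6 FPKM after the siRNA and at 5.52, 4.87 and 5.89 FPKM under WB436B (-1.17, SE 0.0879, adjusted p = 8.2e-06). S100A9, a subunit of calprotectin, averaged 33.2 ± 0.894 and 17.6 ± 1.33 FPKM, and LCN2, a siderophore-binding protein, 16.9 ± 2.53 and 9.97 ± 0.739 FPKM, beside 99.9 and 99.5 FPKM under vehicle. For these last genes both treatments were below vehicle and the compound was the lower.

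The components of the JAK-STAT pathway were split as well, with 9 of 31 higher and 12 lower, or 14 and 8 with median-of-ratios scaling (median 0.09, -0.09 to 0.11 when a library was left out and below 0 without WB436B replicate 2). STAT3, the target of the siRNA, is counted among the higher members here too. OSMR, the receptor of oncostatin M, averaged 23.4 ± 0.627 FPKM after the siRNA and 34.2 ± 1.53 under WB436B (0.53), and IFNGR2, a chain of the interferon-gamma receptor, 7.84 ± 0.732 and 13.5 ± 1.14 (0.71). STAT2, a factor of type I interferon signalling, stood at 16.5, 18.7 and 18.2 FPKM after the siRNA and at 4.75, 5.54 and 4.57 FPKM under WB436B (-1.66, SE 0.0865, adjusted p = 1.2e-06). The phosphatase PTPN6 (-0.75) and the STAT3 inhibitor PIAS3 (-0.64) were lower under WB436B.

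Interferon signalling genes other than STAT2 went in both directions. Of 45 tested interferon-stimulated genes, 5 were higher and 26 lower (median -0.31), beside 20.9% and 43.9% of all tested genes, or 9 and 19 with median-of-ratios scaling (median -0.10). IRF9, which acts with STAT2 in the ISGF3 complex, stood at 13.0, 13.4 and 13.7 FPKM after the siRNA and at 4.07, 3.33 and 2.96 FPKM under WB436B (-1.70, SE 0.0913, adjusted p = 1.5e-06), and 48.4% of its exon bases overlap AL136295.5. IFI44L, an interferon-induced antiviral gene, averaged 12.6 ± 0.602 and 5.6 ± 0.192 FPKM (-1.04). IFIT2 and IFIT3, antiviral proteins of the tetratricopeptide family, went the other way (0.63 and 0.42), as did RSAD2, the antiviral protein viperin (0.42). The stretch before the start of IRF9 is shown as an example of a STAT motif beside an E-box (RefSeq, GRCh38.p14, plus strand, chr14:24161175-24161234, 90 to 31 bases before the start), with capitals on CACGTG and on the match to TTCNNNGAA.
IRF9: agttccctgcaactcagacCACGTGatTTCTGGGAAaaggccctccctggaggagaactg
The letters TTCNNNGAA occur in 9 of 35 promoters of this list (25.7%), in 3 of 20 of the STAT3 targets (15.0%) and in 5.54% of all tested genes with a promoter in the table. Of 17 antigen presentation genes 4 were higher and 8 lower (median -0.18), shares near those of all tested genes (20.9% and 43.9%), or 5 and 5 with median-of-ratios scaling, with the transporter TAP2 at 0.63 and the immunoproteasome subunit PSMB9 at -0.49, whose call was lost under quantile normalization. Of the exon bases of TAP2 32.3% overlap AL669918.1.

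Acute-phase and complement genes were mostly too weak to test, with 6 of 24 passing the filter. Of these 0 were higher and 5 lower. C3, the central complement component, stood at 12.1, 12.7 and 11.7 FPKM after the siRNA and at 4.97, 4.85 and 4.81 FPKM under WB436B (-1.16, SE 0.0521, adjusted p = 6.1e-07), beside 43.4 FPKM under vehicle. C1R, a protease of the classical pathway, averaged 1.98 ± 0.164 and 0.699 ± 0.110 FPKM. SAA1, an acute-phase apolipoprotein, stood at 4.92, 2.76 and 5.6 FPKM after the siRNA and at 2.31, 2.24 and 0.883 FPKM under WB436B (-0.95, SE 0.256, adjusted p = 0.010), and its call was lost under quantile normalization.

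Inflammatory cytokines and other targets of NF-kB, the factor that mediates much of the response to interleukin-1 and TNF, were higher under WB436B with no member called lower. Of 23 tested members 18 were higher and 0 lower (median 0.74), and 6 of 29 did not pass the filter. IL1A, the interleukin-1 alpha precursor, stood at 26.4, 25.8 and 25.9 FPKM after the siRNA and at 124, 128 and 125 FPKM under WB436B (2.23, SE 0.0355, adjusted p = 1.3e-08). IL1B, interleukin-1 beta, stood at 8.21, 8.95 and 8.10 FPKM after the siRNA and at 38.0, 35.3 and 34.8 FPKM under WB436B (1.98, SE 0.0548, adjusted p = 9.5e-08). Neither gene's libraries overlapped, and the vehicle means of 72.1 and 20.5 FPKM lay between the groups. TNFAIP3, the ubiquitin-editing inhibitor A20 of NF-kB, averaged 8.26 ± 0.701 FPKM after the siRNA and 29.1 ± 1.64 under WB436B. CSF2, which encodes GM-CSF, stood at 0.264, 0.111 and 0.411 FPKM after the siRNA and at 5.19, 4.60 and 5.03 FPKM under WB436B. The median difference of the list from vehicle was -0.90 after the siRNA and -0.13 under WB436B, both against the same 3 vehicle libraries.

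Genes induced by ERK signalling, among them ligands of the epidermal growth factor receptor, went in both directions. Of 27 tested ERK targets and feedback genes 14 were higher and 5 lower (median 0.27). HBEGF, the heparin-binding ligand, stood at 15.0, 14.4 and 14.6 FPKM after the siRNA and at 65.2, 66.5 and 64.5 FPKM under WB436B (2.08, SE 0.0413, adjusted p = 2.0e-08). AREG, amphiregulin, stood at 9.76, 10.4 and 10.9 FPKM after the siRNA and at 46.3, 44.4 and 44.3 FPKM under WB436B (2.02, SE 0.0554, adjusted p = 9.0e-08). TGFA, transforming growth factor alpha, averaged 10.6 ± 0.421 and 26.9 ± 0.488 FPKM (1.27). The groups did not overlap for these 3 ligands. On the lower side were EPHA4, an ephrin receptor (-1.08), DUSP4, a nuclear phosphatase of ERK (-0.66), and the early response gene IER2 (-0.40), 30.8% of whose exon bases overlap AC011446.2.

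AP-1, the dimer of Jun and Fos proteins, showed unequal changes of its subunits. FOSL1, JUN (0.78) and FOSB (0.74) were higher under WB436B, and JUND (-0.98) was lower. JUN stood at 19, 20.3 and 20.6 FPKM after the siRNA and at 35.2, 35.2 and 34.5 FPKM under WB436B, and JUND at 7.70, 8.21 and 6.97 FPKM after the siRNA and at 4.02, 3.24 and 2.90 FPKM under WB436B. Over the 21 tested AP-1 and related bZIP factors 4 were higher and 9 lower, shares near those of all tested genes (20.9% and 43.9%), or 8 and 9 with median-of-ratios scaling or quantile normalization. Their median was -0.15, which turned to 0.04 under quantile normalization and ran from -0.36 to -0.02 when a library was left out.

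Promoters of genes at least 2-fold higher under WB436B held the AP-1 letters TGANTCA in 19 of 185 (10.3%), against 17 of 352 (4.83%) of those at least 2-fold lower, 3.89% of the tested genes and 6.60% of all 27305 promoters in the table. Each share covers 250 bases before the start and both strands, and a match is a description of the sequence, not a site of binding. Examples from the higher genes are shown for IL1A, SERPINB2 and ANKRD1, with the match in capitals, beside DDIT3, a gene that was lower and also has a match. They are RefSeq sequences of GRCh38.p14, at chr2:112784494-112784553 on the minus strand, chr18:63887575-63887634 on the plus strand, chr10:90921248-90921307 on the minus strand and chr12:57520705-57520764 on the minus strand.
IL1A: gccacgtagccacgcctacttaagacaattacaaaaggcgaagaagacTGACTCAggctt
SERPINB2: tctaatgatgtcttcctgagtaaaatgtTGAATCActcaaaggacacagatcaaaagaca
ANKRD1: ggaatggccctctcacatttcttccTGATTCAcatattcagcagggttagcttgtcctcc
DDIT3: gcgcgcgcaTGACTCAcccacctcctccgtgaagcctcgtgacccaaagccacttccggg
The matches begin 12, 102, 195 and 241 bases before the start, in that order. IL1A and DDIT3 hold TGACTCA, SERPINB2 holds TGAATCA and ANKRD1 holds TGATTCA, each read on the strand of its gene.

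ANKRD1, a muscle ankyrin repeat protein, and CYR61, a matricellular protein, are known targets of the YAP and TAZ coactivators. ANKRD1 stood at 10.8, 10.2 and 10.9 FPKM after the siRNA and at 48.0, 49.8 and 46.0 FPKM under WB436B (2.07, SE 0.0588, adjusted p = 9.6e-08), and CYR61 at 50.9, 51.3 and 51.8 FPKM after the siRNA and at 150, 147 and 144 FPKM under WB436B (1.5, SE 0.0363, adjusted p = 4.6e-08). THBS1, the matrix glycoprotein thrombospondin, stood at 27.6, 27.2 and 26.5 FPKM after the siRNA and at 106, 107 and 113 FPKM under WB436B (1.96, SE 0.0455, adjusted p = 3.9e-08). In all 3 genes both treatments lay above the vehicle means of 7.28, 31.4 and 13.1 FPKM, and the WB436B libraries were the higher. NT5E, an ecto-nucleotidase, averaged 14.2 ± 0.177 and 49.1 ± 1.96 FPKM. Of 23 tested YAP/TAZ targets 14 were higher and 3 lower (median 0.35), or 16 and 1 with median-of-ratios scaling.

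Genes of the actin cytoskeleton and of focal adhesions, the contacts that tie actin to integrins, were higher in 28 of 33 and lower in 0 (median 0.58). ACTN1, an actin crosslinker, stood at 19, 21.4 and 18.8 FPKM after the siRNA and at 46.3, 44.1 and 46.4 FPKM under WB436B (1.17, SE 0.0609, adjusted p = 1.2e-06). CALD1, an actin-binding regulator of contraction, averaged 10.4 ± 0.374 and 23.4 ± 1.77 FPKM, and LIMA1, which stabilises actin bundles, 16.9 ± 1.16 and 36.9 ± 1.05 FPKM. TPM4, a tropomyosin, spread under WB436B from 26.6 to 67.4 FPKM and stayed above the siRNA libraries. The list median from vehicle was 0.03 after the siRNA and 0.54 under WB436B.

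Among TGF-beta response and mesenchymal genes, 7 of 15 were higher and 1 lower (median 0.15), or 11 and 1 with median-of-ratios scaling. VIM, the intermediate filament of mesenchymal cells, stood at 0.817, 0.863 and 0.821 FPKM after the siRNA and at 7.84, 6.95 and 9.17 FPKM under WB436B (2.29, SE 0.102, adjusted p = 5.8e-07). SMAD7, the inhibitory SMAD, was the member that was lower (-0.68). Outside this list, the collagen genes COL1A1 and COL3A1, named among the fibroblast markers, were lower too (-0.93 and -1.06), and their siRNA means were 2.28 and 1.22 FPKM.

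Proteases of the extracellular matrix and the plasminogen system were split, with 11 of 21 higher and 7 lower (median 0.32). Besides MMP1 and SERPINB2, the gelatinase MMP9 was higher under WB436B, at 0, 0.101 and 0.0409 FPKM after the siRNA and at 1.39, 1.19 and 1.28 FPKM under WB436B. MMP15, a membrane-anchored metalloproteinase, was lower, at 9.60, 10.2 and 9.25 FPKM after the siRNA and at 3.39, 3.19 and 3.11 FPKM under WB436B (-1.34, SE 0.0509, adjusted p = 2.9e-07). MMP28 (-0.68), the sheddase ADAM17 (-0.63) and the inhibitor TIMP2 (-0.54) were lower too. For MMP9 both treatments together spanned 0 to 1.39 FPKM, so the WB436B level of this gene is low.

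**Figure D4:**
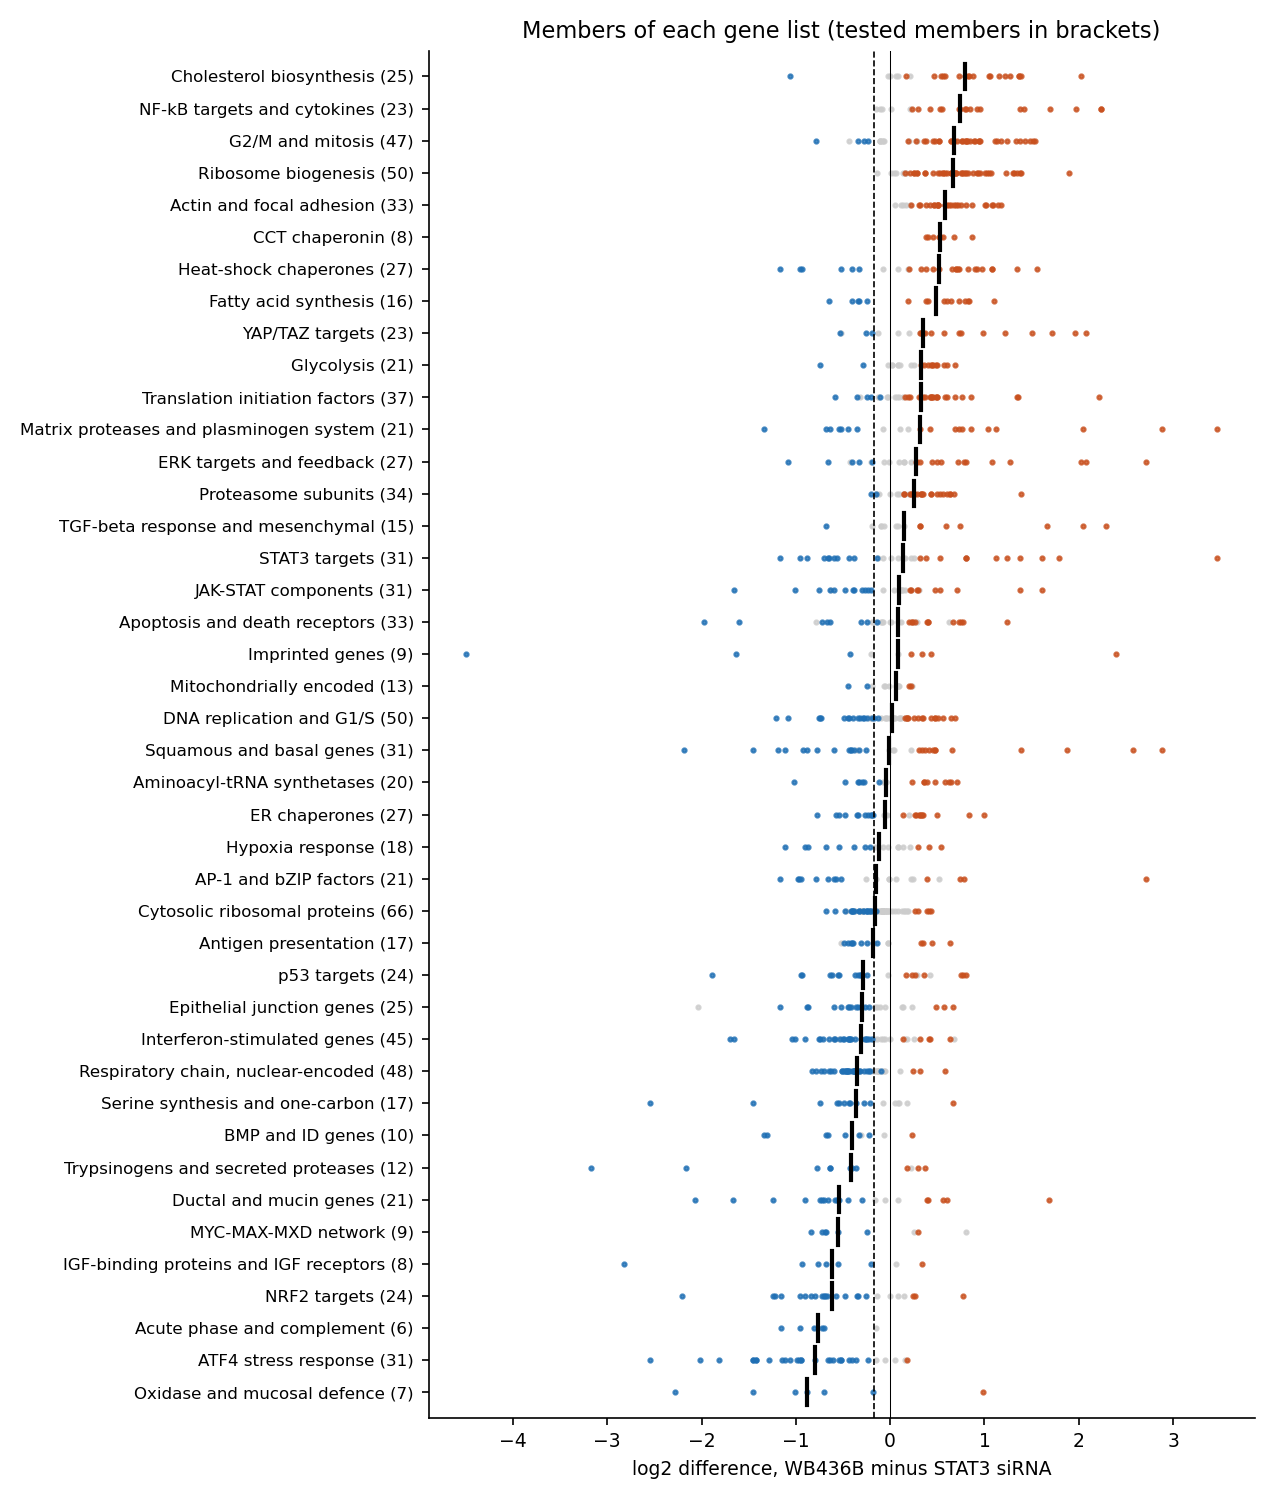
Log2 difference (WB436B minus STAT3 siRNA) of each tested member of the gene lists with at least 5 tested members, cell type markers left out (points: orange higher, blue lower, grey not called) and the median of each list (black bars), with the number of tested members in brackets. The dashed line is the median of all tested genes, -0.17. List medians run from -0.88 for oxidase and mucosal defence genes to 0.79 for cholesterol biosynthesis. With median-of-ratios scaling the medians of squamous genes, aminoacyl-tRNA synthetases, ribosomal proteins, ER chaperones and hypoxia genes change sign, as does that of the ductal and epithelial markers, which are not drawn.

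Genes of ribosome biogenesis, which process and assemble ribosomal RNA in the nucleolus, were higher under WB436B in 43 of 50 and lower in 0 (median 0.67). DKC1, the pseudouridine synthase dyskerin, stood at 25.5, 24.4 and 24.4 FPKM after the siRNA and at 63.5, 67.3 and 67.9 FPKM under WB436B (1.38, SE 0.0414, adjusted p = 1.0e-07). DDX21, a nucleolar helicase, stood at 52.3, 48.8 and 52.7 FPKM after the siRNA and at 126, 133 and 137 FPKM under WB436B (1.35, SE 0.0456, adjusted p = 1.7e-07). NOP58, a core protein of box C/D ribonucleoproteins, averaged 20.1 ± 1.69 and 53.5 ± 1.07 FPKM, and LYAR, a nucleolar growth regulator, 5.07 ± 0.301 and 21.5 ± 0.710. The groups did not overlap for these 4 genes, and their vehicle means were 22.1, 42.4, 20.01 and 4.39 FPKM, nearer to the siRNA libraries than to the WB436B libraries. The E-box letters CACGTG, which MYC-MAX dimers bind, occurred in 4 of 42 promoters of this list (9.52%) and in 9.18% of all tested genes.

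The translation machinery itself was less uniform. Initiation factors were higher in 23 of 37 and lower in 5 (median 0.33), led by EIF5B, by EIF1AX, a factor of start codon scanning (1.35), and by EIF3J, a subunit of eIF3 (1.34). Cytosolic ribosomal proteins were higher in 5 of 66 and lower in 19 (median -0.17), a split that turned to 13 higher and 3 lower with median-of-ratios scaling (median 0.05). RPL37 averaged 150 ± 17.5 and 95.1 ± 23.2 FPKM, and RPL5 192 ± 27.2 and 252 ± 14.3. Aminoacyl-tRNA synthetases, which charge transfer RNAs, were higher in 9 of 20 and lower in 7, or 12 and 3 with median-of-ratios scaling. The enzyme for alanine, AARS, was lower (-1.02), and that for lysine, KARS, higher (0.70).

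Chaperones of the cytosol were higher under WB436B in most cases, with HSPA1A, HSPA1B and HSPB1 among the exceptions. Of 27 heat-shock chaperones 18 were higher and 6 lower (median 0.51). HSPA8, the constitutive HSP70, stood at 185, 184 and 186 FPKM after the siRNA and at 582, 553 and 502 FPKM under WB436B (1.55, SE 0.0659, adjusted p = 4.9e-07). HSP90AA1 averaged 239 ± 17.8 and 608 ± 9.12 FPKM, and HSP90AB1 418 ± 1.31 and 886 ± 5.15. The inducible HSP70 genes HSPA1A and HSPA1B, so alike that their fragments cannot be assigned with certainty, were lower (-0.93 and -0.95), as was the small heat-shock protein HSPB1, at 315, 341 and 335 FPKM after the siRNA and at 153, 147 and 141 FPKM under WB436B (-1.16, SE 0.0526, adjusted p = 6.3e-07). All 8 subunits of the CCT chaperonin, which folds actin and tubulin, were higher (median 0.52), with CCT2 at 55.6, 55.5 and 53.5 FPKM after the siRNA and at 99.6, 101 and 101 FPKM under WB436B. The 250 bases before the start of HSPA8 are shown because they hold more than a single match to a heat-shock element (RefSeq, GRCh38.p14, minus strand, chr11:123062137-123062386), with the matches on either strand in capitals.
HSPA8: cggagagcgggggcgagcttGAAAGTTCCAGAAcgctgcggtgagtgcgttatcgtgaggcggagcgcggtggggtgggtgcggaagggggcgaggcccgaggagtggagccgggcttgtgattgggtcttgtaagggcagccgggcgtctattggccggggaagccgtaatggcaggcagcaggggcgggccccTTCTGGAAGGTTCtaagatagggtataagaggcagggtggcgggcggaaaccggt
The matches begin 230 and 55 bases before the start. The element occurs in 3 of 24 promoters of the chaperone list (12.5%) and in 0.262% of all tested genes.

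Proteasome subunits were higher in 22 of 34 and lower in 2 (median 0.25). PSMA7, a ring subunit of the core particle, stood at 70.2, 70.7 and 74.2 FPKM after the siRNA and at 206, 185 and 179 FPKM under WB436B (1.39, SE 0.0583, adjusted p = 4.6e-07), apart from the other subunits, which reached at most 0.67. Chaperones of the endoplasmic reticulum were split evenly, with 11 of 27 higher and 11 lower, or 12 and 5 with median-of-ratios scaling (median -0.06, -0.14 to 0.03 when a library was left out, above 0 without siRNA replicate 1 or 3 or WB436B replicate 3). HSP90B1, the HSP90 of that compartment, was higher (0.84), as was DERL1, a channel for the degradation of misfolded proteins (1.00). SYVN1, a ubiquitin ligase of the same pathway, was lower (-0.77).

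In the cell cycle, mitotic genes separated the treatments and replication genes did not as a group. Of 47 G2/M and mitosis genes 34 were higher and 4 lower (median 0.68), with medians from vehicle of -0.48 after the siRNA and 0.25 under WB436B. CDC20, the activator of the anaphase-promoting complex, stood at 84.3, 87.7 and 84.3 FPKM after the siRNA and at 249, 249 and 240 FPKM under WB436B (1.51, SE 0.0371, adjusted p = 4.6e-08). CCNB1, cyclin B1, stood at 41.6, 40.0 and 42.6 FPKM after the siRNA and at 120, 119 and 114 FPKM under WB436B (1.49, SE 0.0394, adjusted p = 8.0e-08). KIF20A, a kinesin of cytokinesis, averaged 25.2 ± 0.821 and 69.8 ± 2.57 FPKM, and the mitotic kinase AURKA 24.7 ± 6.36 and 73.7 ± 16.9. CDK1, the partner of cyclin B1, was lower by a small amount (-0.34), a call lost with median-of-ratios scaling.

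Of 50 DNA replication and G1/S genes 15 were higher and 17 lower, or 25 and 10 with median-of-ratios scaling. Their median was 0.01 (-0.02 to 0.02 when a library was left out, below 0 without siRNA replicate 1 or WB436B replicate 3), and both treatments lay above vehicle by a median of 0.51 and 0.45. CCNE2, cyclin E2, stood at 3.04, 3.56 and 3.34 FPKM after the siRNA and at 0.619, 1.01 and 0.983 FPKM under WB436B (-1.21, SE 0.0941, adjusted p = 9.7e-06), with 37.1% of its exon bases overlapping INTS8, and the transcription factor E2F2 averaged 5.38 ± 0.356 and 2.00 ± 0.0892 FPKM. MCM10 and MCM6, which act in the loading and firing of the replicative helicase, were higher (0.64 and 0.51), as was SLBP, which binds histone messengers (0.69).

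The response run by ATF4, the transcription factor that is translated when amino acids are short or eIF2 is phosphorylated, was lower under WB436B. Of 31 tested members 26 were lower and 1 was higher (median -0.80), and the median from vehicle was 0.52 after the siRNA and -0.32 under WB436B. ATF4 itself stood at 203, 209 and 216 FPKM after the siRNA and at 114, 105 and 101 FPKM under WB436B (-0.97, SE 0.0542, adjusted p = 1.8e-06). DDIT3, the factor CHOP, stood at 27.4, 29.3 and 38.0 FPKM after the siRNA and at 8.06, 6.60 and 6.36 FPKM under WB436B (-2.02, SE 0.146, adjusted p = 6.5e-06). Of its exon bases 39.6% overlap MARS, which counting without strand cannot separate. TRIB3, a pseudokinase that restrains ATF4, averaged 14.1 ± 1.33 and 4.51 ± 0.340 FPKM, and the glycine transporter SLC6A9 9.70 ± 0.184 and 2.04 ± 0.181. The groups did not overlap for these 4 genes. ALDH18A1, an enzyme of proline synthesis, was the member that was higher (0.18), and its call was lost under quantile normalization.

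The letters TGATGNAA of the composite C/EBP-ATF element occurred in 3 of 25 promoters of the ATF4 list (12%), in 14 of 352 of genes at least 2-fold lower (3.98%), in 2 of 185 of those at least 2-fold higher (1.08%) and in 1.25% of all tested genes. CHAC1, a glutathione-degrading enzyme, and ASNS, asparagine synthetase, are shown as examples and were chosen after their values were seen. They are RefSeq sequences of GRCh38.p14, CHAC1 on the plus strand at chr15:40953231-40953290 and ASNS on the minus strand at chr7:97872449-97872508, with the match on either strand in capitals.
CHAC1: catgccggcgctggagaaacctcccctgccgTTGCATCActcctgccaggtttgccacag
ASNS: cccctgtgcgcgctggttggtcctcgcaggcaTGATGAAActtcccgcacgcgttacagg
CHAC1 stood at 2.97, 3.38 and 3.43 FPKM after the siRNA and at 1.11, 1.06 and 0.968 FPKM under WB436B (-1.06), and ASNS at 14.2, 11.3 and 12.1 FPKM after the siRNA and at 3.94, 4.29 and 3.88 FPKM under WB436B (-1.42).

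Serine synthesis and one-carbon metabolism were lower in part. Of 17 tested members 11 were lower and 1 was higher (median -0.36), or 8 and 4 with median-of-ratios scaling (median -0.15). PHGDH, the first enzyme of serine synthesis, stood at 9.13, 9.42 and 8.86 FPKM after the siRNA and at 2.78, 2.33 and 3.04 FPKM under WB436B (-1.45, SE 0.0944, adjusted p = 3.7e-06), beside PSAT1, the second. The mitochondrial folate enzyme MTHFD1L was the member that was higher, at 17.9, 18.1 and 17.4 FPKM after the siRNA and at 28.3, 29.8 and 28.8 FPKM under WB436B (0.67, SE 0.0380, adjusted p = 1.9e-06). Some genes of this list, PSAT1 and PHGDH included, are also members of the ATF4 list, so the counts are not separate.

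Genes of the antioxidant response driven by NRF2 were lower in 17 of 24 and higher in 3 (median -0.62). AKR1C1, an aldo-keto reductase of steroids, stood at 30.2, 31.1 and 30.0 FPKM after the siRNA and at 5.73, 5.74 and 5.94 FPKM under WB436B (-2.21, SE 0.0440, adjusted p = 2.0e-08), and its close relative AKR1C3 averaged 18.0 ± 1.26 and 7.52 ± 0.533 FPKM. FTL, the ferritin light chain, stood at 3133, 3308 and 3406 FPKM after the siRNA and at 1462, 1397 and 1315 FPKM under WB436B (-1.24, SE 0.0697, adjusted p = 1.8e-06), with the WB436B libraries near the vehicle mean of 1213 FPKM. FTH1, the heavy chain, was lower too (-1.22), but 62.4% of its exon bases overlap BEST1. AKR1B10, a further aldo-keto reductase, was higher (0.78), with both groups below its vehicle mean of 73.3 FPKM.

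Nuclear-encoded subunits of the respiratory chain were lower in 33 of 48 and higher in 3 (median -0.35), or 14 and 5 with median-of-ratios scaling. NDUFB10, a subunit of complex I, stood at 49.0, 50.3 and 51.9 FPKM after the siRNA and at 31.9, 27.2 and 24.9 FPKM under WB436B (-0.83, SE 0.0883, adjusted p = 5.4e-05), and COX5B, a subunit of complex IV, at 41.3, 42.2 and 49.9 FPKM after the siRNA and at 29.6, 26.4 and 23.1 FPKM under WB436B (-0.73). ATP5C1, the gamma subunit of ATP synthase, went the other way (0.59). Of 13 mitochondrially encoded genes 2 were higher and 2 lower, or 7 and 1 with median-of-ratios scaling and 4 and 2 with quantile normalization, with MT-ND4L, a subunit of complex I, at -0.45, a call lost under quantile normalization.

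Sterol synthesis had the highest median of the lists with at least 5 tested members on unscaled FPKM, while NF-kB targets were higher under quantile normalization (0.83 against 0.75). Of 25 tested cholesterol biosynthesis genes 19 were higher and 1 lower (median 0.79), with medians from vehicle of -0.50 after the siRNA and 0.09 under WB436B. HMGCS1, which makes the precursor of mevalonate, stood at 12.9, 13.0 and 13.5 FPKM after the siRNA and at 53.1, 57.5 and 58.9 FPKM under WB436B (2.03, SE 0.212, adjusted p = 5.0e-05). SQLE, the epoxidase of squalene, stood at 10.4, 10.8 and 10.5 FPKM after the siRNA and at 27.8, 29.7 and 30.1 FPKM under WB436B (1.39, SE 0.0480, adjusted p = 1.9e-07). IDI1, which isomerises isopentenyl diphosphate, averaged 7.67 ± 0.297 and 21.4 ± 0.775 FPKM. INSIG1, which retains the sterol sensor in the endoplasmic reticulum, spread from 16.3 to 30.2 FPKM under WB436B, all above the siRNA libraries (1.37). TM7SF2, a sterol reductase, was the member that was lower (-1.06).

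Fatty acid synthesis genes were higher in 11 of 16 and lower in 5 (median 0.48), or 11 and 1 with median-of-ratios scaling. ACLY, which makes cytosolic acetyl-CoA, averaged 22.1 ± 0.751 and 40.3 ± 1.70 FPKM (0.84), and FASN, fatty acid synthase, 22.3 ± 1.84 and 39.3 ± 3.39 (0.79). SREBF1, the transcription factor of this pathway, was lower, at 11.4, 13.4 and 11.6 FPKM after the siRNA and at 7.64, 6.86 and 7.47 FPKM under WB436B (-0.65, SE 0.0827, adjusted p = 1.5e-04), and both groups were below its vehicle mean of 26.8 FPKM.

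Glycolytic enzymes were higher in 11 of 21 and lower in 2 (median 0.33), or 18 and 1 with median-of-ratios scaling. LDHA, lactate dehydrogenase A, stood at 60.7, 59.3 and 64.6 FPKM after the siRNA and at 88.5, 106 and 106 FPKM under WB436B (0.69, SE 0.0968, adjusted p = 2.9e-04), and PFKP, a phosphofructokinase, at 0.60. ENO2, the neuronal enolase, was lower (-0.74). Genes of the hypoxia response were higher in 3 of 18 and lower in 8, shares near those of all tested genes (20.9% and 43.9%). With median-of-ratios scaling the counts were 6 and 4. DDIT4, an inhibitor of mTORC1, stood at 29.3, 30.6 and 30.3 FPKM after the siRNA and at 14.4, 12.7 and 13.0 FPKM under WB436B (-1.11, SE 0.0635, adjusted p = 2.0e-06), both below the vehicle mean of 80.6 FPKM, and 41.2% of its exon bases overlap DDIT4-AS1. EPAS1, the hypoxia-inducible factor HIF-2 alpha, averaged 22.2 ± 0.895 and 11.7 ± 0.597 FPKM.

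Genes of ductal and mucin-secreting epithelium went in both directions. Of 21 tested members 5 were higher and 13 lower (median -0.54). AGR2, a disulphide isomerase of mucin-producing cells, stood at 38.9, 37.5 and 40.3 FPKM after the siRNA and at 9.02, 8.94 and 7.57 FPKM under WB436B (-2.07, SE 0.0814, adjusted p = 3.4e-07). ELF3, an epithelial ETS factor, stood at 11.3, 12.3 and 11.9 FPKM after the siRNA and at 3.33, 2.84 and 2.96 FPKM under WB436B (-1.67, SE 0.0576, adjusted p = 1.9e-07). CEACAM5, the carcinoembryonic antigen, averaged 53.3 ± 0.935 and 22.1 ± 0.949 FPKM. All 3 were above both groups under vehicle (54.1, 24.1 and 101 FPKM). SPP1, osteopontin, was higher under WB436B, at 1.79, 1.5 and 2.13 FPKM after the siRNA and at 7.45, 8.35 and 8.25 FPKM under WB436B (1.69, SE 0.0937, adjusted p = 1.7e-06). The keratins of ductal epithelium were divided. KRT7 (0.56) and KRT18 (0.39) were higher, while KRT19 (-0.59), KRT8 (-0.54) and KRT17 (-0.33) were lower. KRT19 averaged 503 FPKM after the siRNA and 334 FPKM under WB436B. Of the 9 tested ductal and epithelial markers, which include these keratins, 2 were higher and 4 lower, or 3 and 2 with median-of-ratios scaling.

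Squamous and basal genes were divided, with 12 of 31 higher and 14 lower, or 14 and 10 with median-of-ratios scaling (median -0.01, -0.09 to 0.06 when a library was left out, above 0 without siRNA replicate 3 or WB436B replicate 3). KRT14, a basal keratin, stood at 1.06, 1.25 and 1.13 FPKM after the siRNA and at 6.55, 6.56 and 7.56 FPKM under WB436B (1.88, SE 0.0984, adjusted p = 1.3e-06), in the direction opposite to KRT15. KRT13, a keratin of stratified mucosa, averaged 346 ± 17.4 and 152 ± 11.2 FPKM (-1.19). PI3, the elastase inhibitor elafin, averaged 32.4 ± 2.45 and 11.2 ± 0.647 FPKM (-1.46), and GJB2, connexin 26, 6.74 ± 0.241 and 19.2 ± 0.629 (1.39). DSG3, a desmosomal cadherin, was lower (-1.12).

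Epithelial junction genes were higher in 3 of 25 and lower in 13 (median -0.30), or 6 and 6 with median-of-ratios scaling. GRHL2, a transcription factor of epithelial identity, stood at 21.4, 21.9 and 21.1 FPKM after the siRNA and at 8.87, 9.21 and 8.89 FPKM under WB436B (-1.17, SE 0.0476, adjusted p = 3.9e-07). CLDN1, a tight-junction claudin, averaged 85.9 ± 1.93 and 46.1 ± 0.763 FPKM. PKP2, a desmosomal plaque protein, was higher (0.67). Of 7 tested genes of oxidase and mucosal defence, of 19 in the list, 6 were lower and 1 was higher. DMBT1, a mucosal scavenger receptor, stood at 4.09, 4.54 and 4.72 FPKM after the siRNA and at 0.0898, 0.136 and 0.131 FPKM under WB436B (-2.28, SE 0.0610, adjusted p = 8.0e-08). Its vehicle mean was 0.139 FPKM, so the siRNA libraries were the ones far from vehicle. RNASE7, an antimicrobial ribonuclease, was the member that was higher (0.98).

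Insulin-like growth factor binding proteins and receptors were lower in 6 of 8 and higher in 1 (median -0.62). Besides IGFBP5, the receptor IGF1R averaged 10.2 ± 0.359 and 5.6 ± 0.180 FPKM (-0.77), and IGFBP4 50.6 ± 1.01 and 31.1 ± 1.46 (-0.68). IGF2R, which clears the growth factor IGF2, was the member that was higher (0.33). Imprinted genes, of which 9 of 24 were tested, showed no common direction, with 4 higher and 3 lower (median 0.08, -0.09 to 0.22 when a library was left out, below 0 without siRNA replicate 2 or WB436B replicate 3). The extremes were H19 and PHLDA2, and PEG10, a retrotransposon-derived gene, stood at 39.6, 40.4 and 38.8 FPKM after the siRNA and at 11.1, 11.9 and 13.2 FPKM under WB436B (-1.64, SE 0.107, adjusted p = 3.7e-06). The vehicle mean of PEG10 was 10.7 FPKM, near the WB436B libraries.

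ID1 and ID3, ID factors that sequester basic helix-loop-helix proteins and respond to BMP signalling, were lower under WB436B than after the siRNA. ID1 stood at 73.1, 76.5 and 69.3 FPKM after the siRNA and at 30.5, 27.4 and 28.7 FPKM under WB436B (-1.31, SE 0.0506, adjusted p = 3.1e-07), with 288 FPKM under vehicle, far above both. ID3 averaged 6.85 ± 0.483 and 2.11 ± 0.409 FPKM (-1.34), beside 1.56 FPKM under vehicle. For ID3 the siRNA libraries were thus the ones far from vehicle, unlike ID1. The list of BMP and ID genes had 1 of 10 higher and 7 lower (median -0.41). In the network of MYC, MAX and MXD, 6 of 9 tested members were lower and 1 was higher, or 4 and 2 with median-of-ratios scaling or quantile normalization, and the median of -0.55 turned to 0.26 with a filter of 5 FPKM. The MYC antagonist MXD1 stood at 12.6, 11.8 and 12 FPKM after the siRNA and at 6.31, 8.03 and 7.12 FPKM under WB436B (-0.70, SE 0.101, adjusted p = 3.5e-04), both above the vehicle mean of 1.35 FPKM, and MXD4 (-0.84) and MNT (-0.72), further MAX-binding repressors, were lower.

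Targets of p53 were higher in 7 of 24 (29.2%) and lower in 13 (54.2%), beside 20.9% and 43.9% of all tested genes. Their median was -0.29. With median-of-ratios scaling the counts were 8 and 8, and the median turned to 0.07 with a filter of 5 FPKM. GDF15, a stress-induced cytokine, stood at 18.5, 21.5 and 17.0 FPKM after the siRNA and at 4.25, 4.83 and 4.05 FPKM under WB436B (-1.89, SE 0.100, adjusted p = 1.4e-06), and SESN2, a leucine sensor, averaged 7.38 ± 0.212 and 3.35 ± 0.0308 FPKM. AEN, an apoptosis-enhancing nuclease, was higher (0.80), as was the death receptor TNFRSF10B (0.77). Its ligand TNFSF10, known as TRAIL, was lower, at 8.54, 8.63 and 9.52 FPKM after the siRNA and at 2.10, 2.38 and 2.26 FPKM under WB436B (-1.61, SE 0.0589, adjusted p = 2.4e-07), and both groups were below the vehicle mean of 32.3 FPKM. Among 33 apoptosis genes 12 were higher (36.4%) and 8 lower (24.2%), with a median of 0.08, or 16 and 6 with median-of-ratios scaling. BMF, a BH3-only protein that promotes cell death, stood at 4.02, 4.07 and 3.83 FPKM after the siRNA and at 0.243, 0.209 and 0.353 FPKM under WB436B (-1.97, SE 0.0796, adjusted p = 3.8e-07), and BIRC5, survivin, at 3.06, 3.27 and 5.24 FPKM after the siRNA and at 8.5, 12.9 and 9.72 FPKM under WB436B (1.24, SE 0.184, adjusted p = 4.0e-04).

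**Figure D5:**
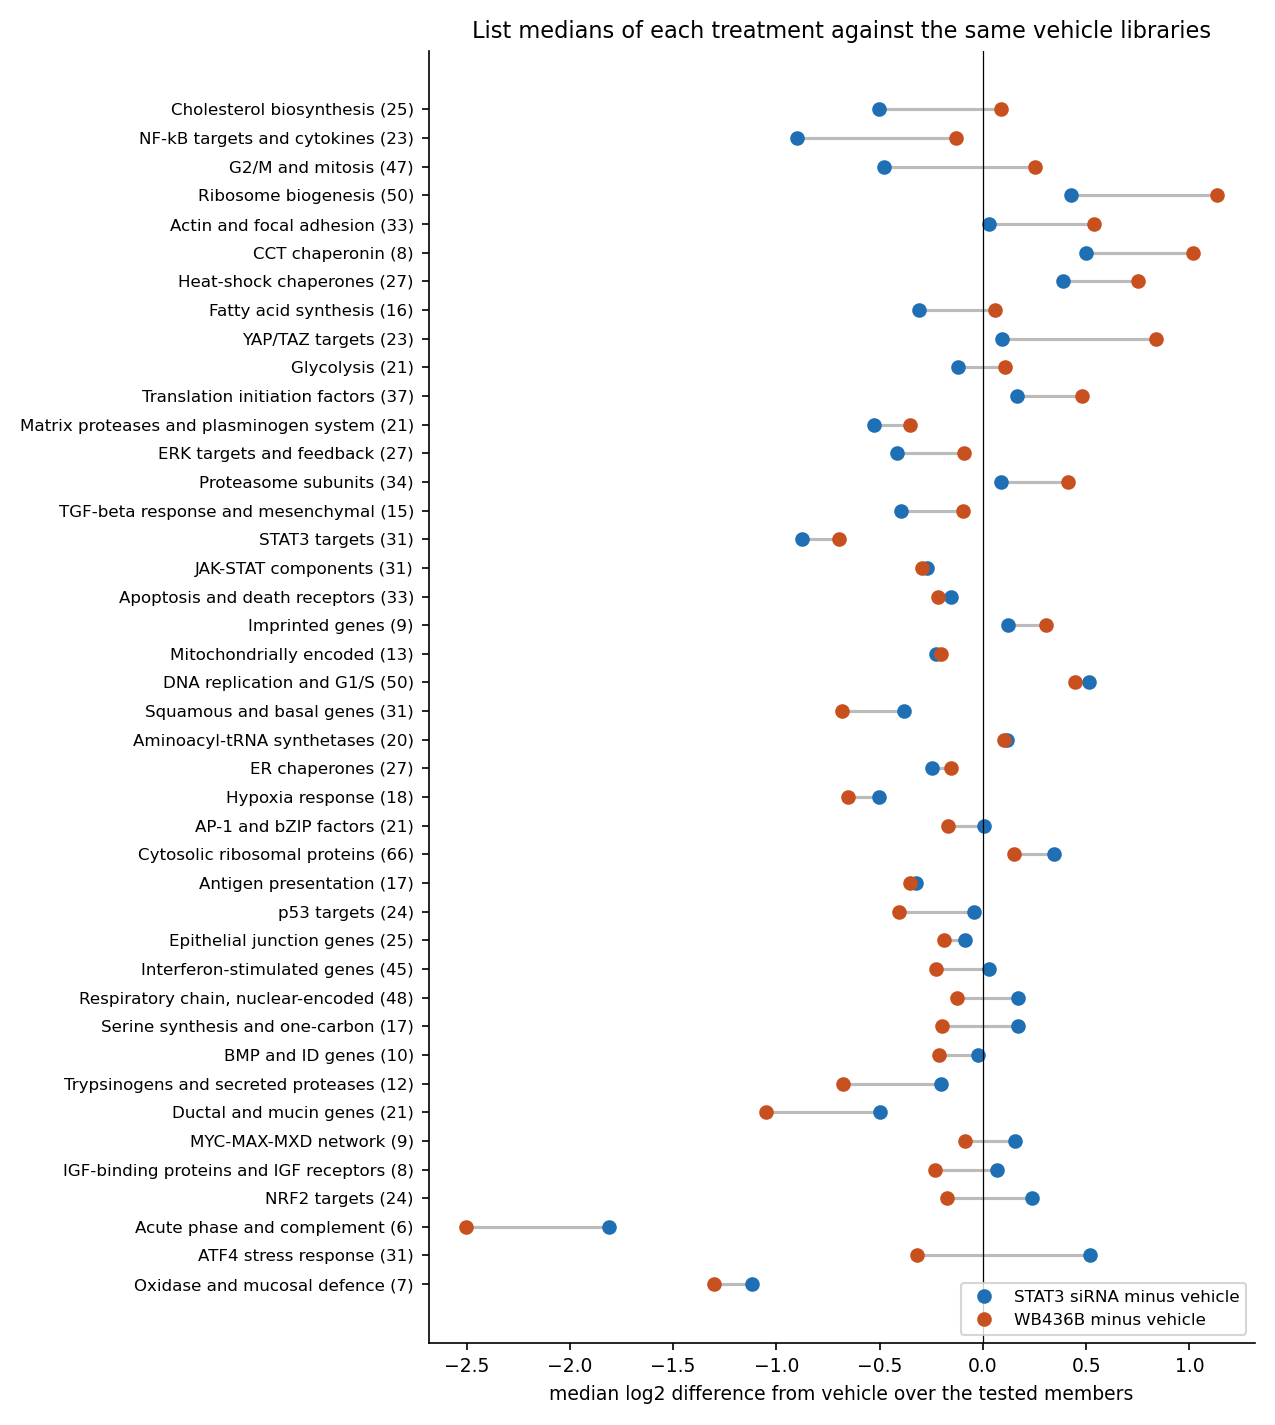
Median log2 difference from the same 3 vehicle libraries over the tested members of each list, after STAT3 siRNA (blue) and under WB436B (orange), joined by a line, with lists in the order of their median in the direct comparison. Both points of a list share the vehicle values, and their distance need not equal the median of the direct differences. ATF4 genes lie on opposite sides of vehicle (0.52 and -0.32) and ribosome biogenesis genes on the same side (0.43 and 1.14).

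Set beside vehicle, the lists took different forms, while all tested genes had medians of 0.08 after the siRNA and -0.095 under WB436B. NF-kB targets stood near vehicle under WB436B (median -0.13) and below it after the siRNA (-0.90). ATF4 genes were above vehicle after the siRNA and below it under WB436B. The NRF2 targets had medians of 0.24 and -0.17, the same signs as all tested genes. The STAT3 targets were below vehicle in both groups, with medians of -0.88 after the siRNA and -0.70 under WB436B. These medians are descriptions, since both treatments were set against the same vehicle libraries.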

How the data were processed

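RNA-seq libraries of BxPC3 cells (3 per group) came as 1 table of FPKM per gene identifier, deposited by the authors. Per the submitters' processing notes Bowtie 0.12.2 was used with the build mm8, which is a mouse build. The gene identifiers are those of human genes, the build is therefore uncertain, and no coordinate comes from the table. Strand use in counting is not given in the sources used here, and neither read counts nor library totals were used, so depth was estimated from the smallest step between FPKM values (about 16600000 to 20500000 fragments in the 6 libraries compared). No interval for counting error was computed.

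Values were transformed as log2(FPKM + 1) and fitted with limma-trend (limma 3.58.1, R 4.3.3) over all 9 libraries with a mean per group. The p-values of the 12064 tested genes were adjusted by Benjamini-Hochberg. The fit was tested on simulated data. Tables were handled in Python 3.11.15 with pandas 2.3.3. Gene types and exon overlaps were taken from GENCODE 29, which held 96.5% of the identifiers, and promoters from RefSeq (GRCh38.p14), which held 195 of the 272 genes selected for naming.

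The genes and lists were chosen with earlier results of these data known. Named were MMP1, FOSL1, PSAT1, H19, STAT3 and SOCS3, then the 12 largest called differences in each direction with at least 5 FPKM in the higher group, groups that do not overlap and at most a 2-fold range within the higher group, and up to 4 called members per list and direction that averaged at least 1 FPKM in the higher group. Lists are described by counts and medians, without a test of the set. Alternatives covered the pseudocount, the filter, the scaling, the variance model, the libraries fitted, the replicate block, a stricter threshold and leaving out each library. Motifs were searched in 250 bases before the start on both strands: AP-1 (TGANTCA), STAT (TTCNNNGAA), E-box (CACGTG), C/EBP-ATF (TGATGNAA) and the heat-shock element.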

Additional observations from a re-analysis of the deposited data

How the results depend on the processing

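The scaling and the filter set the split of the calls. Median-of-ratios scaling gave 3852 genes higher (449 at least 2-fold) and 369 at least 2-fold lower, with 50.4% of calls higher and a median of -0.0003122. Quantile normalization gave 290 at least 2-fold lower, 49.4% of calls higher and a median of -0.00767. A filter of 5 FPKM left 2353 genes lower, 297 of them at least 2-fold, with 46.0% of calls higher and a median of -0.0417, and fewer genes were tested. Without a filter the median was -0.0426. A pseudocount of 0.1 gave 1627 genes at least 2-fold lower (median -0.211), and 0.5 gave 1134 (median -0.193). Protein-coding genes alone, an alternative chosen after seeing the data, had a median of -0.1405. Apart from the effect of the filter on the number tested, the cause of these shifts was not tested. Leaving out 1 library gave 2334 to 2579 genes higher and 4940 to 5358 lower, and STAT3 differences of 1.55 to 1.64.

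Of the 272 genes selected for naming, 248 kept their direction and call with median-of-ratios scaling, 20 lost the call and 4 changed sign, namely AJUBA (0.01993), EIF4G3 (0.007702), PSMB4 (0.06043) and PSMB7 (0.01232), which had the same values with the replicate block and median-of-ratios scaling. Quantile normalization cost 17 calls, no filter 8, an adjusted p below 0.01 20, and leaving out 1 library 1 to 7.

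The replicate numbers showed no pairing of the libraries in the correlations computed here. Same-numbered siRNA and WB436B libraries had correlations of deviations of -0.0631, -0.0235 and -0.0401, and other pairs -0.00401 to 0.0454, so no library correlated best with its own number. Deviations from a mean of 3 libraries depend on each other, so these values cannot decide whether libraries of a number share an origin. With the replicate block 2446 genes were higher and 5183 lower, and 5 named genes lost their call. The replicate block with median-of-ratios scaling gave 450 at least 2-fold higher, 367 at least 2-fold lower, 50.42% of calls higher and a median of -0.0003122. Depth limits the weak transcripts most, and the counts behind their values were not used here.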
